A study of Aedes aegypti with 8 samples.

Results

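The heat shock genes described here were chosen by identifier, as 8 small heat shock genes numbered between AAEL013338 and AAEL013350 and the HSP83/HSP90 genes AAEL011704 and AAEL011708, 10 genes in all. A row was found for 8 of the 10 among the 19712 identifiers of the count table, which are 7 small heat shock genes and AAEL011708. AAEL013340 and AAEL011704 were not analysed here. All 8 genes with a row passed the filter on low counts and were among the 11095 genes tested. Midguts were dissected from sugar-fed Aedes aegypti females of the Liverpool strain, aged 3 to 5 days, and held for 35 h in Schneider's Drosophila medium without serum, with 0 µM or 10 µM heme, added as hemin chloride. Both groups therefore lacked serum and contained penicillin, streptomycin and L-glutamine, and both were tissue kept outside the animal, so no group stands for the midgut in the mosquito. Each group held 4 biological replicates, each a pool of midguts, and polyA RNA was sequenced from the whole pool, so fewer cells of a type and less RNA per cell cannot be told apart.

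Small heat shock proteins and HSP90 are molecular chaperones. Small heat shock proteins hold partly unfolded proteins in a soluble state without using ATP, and the lethal(2)essential for life genes of insects belong to this family through their alpha-crystallin domain. HSP90, called HSP83 in flies, uses ATP to mature client proteins such as kinases and steroid receptors. Heat shock factor raises many of these genes when proteins are damaged. Digestion of blood hemoglobin frees heme in the mosquito midgut, and free heme can oxidize proteins and lipids.

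The part of the study's annotation that was read names AAEL013338 as lethal(2)essential for life and AAEL011708 as a heat shock protein. The other 6 were not found in it, and their names come from the gene list alone. In RefSeq, assembly AaegL5.0, a protein-coding gene with the same start and end as AAEL013338 in that annotation lies at chr2:135690257-135691098, and that for AAEL011708 at chr2:104825731-104832709, each with 1 transcript. Within 50 kb on either side of AAEL013338, RefSeq places 9 other protein-coding genes, all short, with spans of 761 to 1431 bases. In the count table the 7 small heat shock genes fall within 12 consecutive rows, together with 5 other identifiers. No position was assigned to the other 6 genes, and no sequence is printed.

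Total counts ranged from 46027977 to 56947544 per library. A run of identifiers from AAEL018664 to AAEL018689 took 0.0968% to 0.190% of counts in the 0 µM libraries and 0.0946% in 10 µM heme replicate 2. In the other 10 µM libraries it took 6.69% (replicate 1), 1.69% (replicate 3) and 3.03% (replicate 4). Levels are therefore given as CPM, the counts scaled to a common library size after TMM correction, which adjusts each total for such shifts in composition. The study's RT-qPCR reference gene AAEL009496 (rpS7) had 1712 ± 211 CPM (SD, n = 4) without heme and 1777 ± 246 CPM (SD, n = 4) with it. Markers of the tissue were few in the annotation used here. The muscle gene AAEL000485 (paramyosin) had 119.5 ± 11.7 CPM (SD, n = 4) and 112 ± 5.04 CPM (SD, n = 4) in the same order. Of 2 trypsin-type proteases, AAEL002273 was near 0 in every library (0.160 to 0.486 CPM). AAEL009853 was called, with 14.03 ± 1.77 CPM (SD, n = 4) without heme and a fall to 8.82 ± 0.392 CPM (SD, n = 4) with it (exact test, adjusted p = 5.40e-04). These genes do not establish which epithelial cells the pools held.

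The first question was whether 10 µM heme changed the heat shock genes. The test was edgeR's exact test, and a gene was called when its p, adjusted over all genes by Benjamini-Hochberg, was under 0.05. None of the 8 genes was called (0 of 8, against 4.63% of all 11095 genes tested). The 7 small heat shock genes all had log2 fold changes below 0, from -0.40 to -0.07 with a median of -0.14, and AAEL011708 lay at 0.02. Without 10 µM heme replicate 4 the median of the 7 was -0.07. Over all genes tested the median was 0.02, and 46.6% of genes lay below 0. At an unadjusted p under 0.05, 2 of the 8 were lower with heme, AAEL013339 and AAEL013348, against 6.69% of all genes tested. This count became 1 when 0 µM heme replicate 1, 0 µM heme replicate 2 or 10 µM heme replicate 2 was left out, and 0 when replicate 4 of either group was. In 1 of the 8, all 10 µM libraries lay below all 0 µM libraries, which held for 5.32% of all genes tested, and in none did they all lie above. DESeq2 called 1 of the 8, against 6.45% of all genes. The quasi-likelihood test of edgeR called 0 of the 8, against 2.85% of all genes, and had 2 lower at an unadjusted p under 0.05, against 7.7% of all genes.

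A miss of the threshold leaves room for a change, so the interval of each fold change was taken from limma-voom with quality weights. The 95% intervals of all 8 genes lay inside a doubling or halving, that is, between log2 values of -1 and 1, as did those of 81.8% of all genes tested. The widest reach below 0 was -0.72 in AAEL013338, and the highest upper bound was 0.20 in AAEL011708. The intervals of 2 of the 8, AAEL013339 and AAEL013348, left out 0, a share near the 19.9% of all genes tested.

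**Figure D1:**
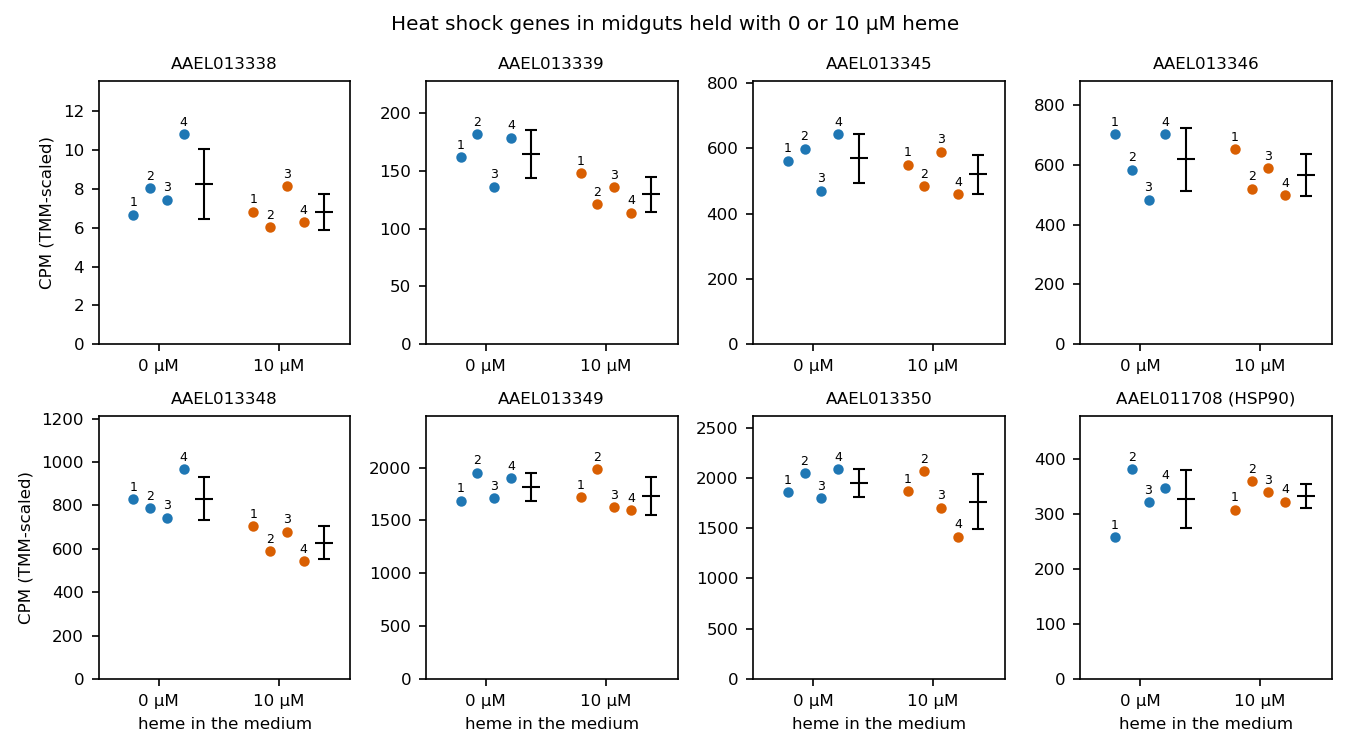
CPM of each heat shock gene (y axis, TMM-scaled, each panel from 0) in midguts held with 0 µM (blue) or 10 µM heme (orange); points are libraries labelled by replicate number, and the bar is the mean ± SD of 4. Only in AAEL013348 do the groups part, with 744 to 969 CPM without heme and 542 to 704 CPM with it.

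AAEL013348 had the lowest fold change of the small heat shock genes. It had 828, 787, 744 and 969 CPM in 0 µM heme replicates 1 to 4, and 704, 588, 679 and 542 CPM in the 10 µM replicates. Every heme library thus lay below every library without heme. The log2 fold change was -0.40 ± 0.12 (SE; exact test, adjusted p = 0.288), a level 24.4% lower with heme, with a limma-voom interval of -0.68 to -0.18. DESeq2 called it (log2 fold change -0.42, adjusted p = 0.0251), while limma-voom (adjusted p = 0.0579) and the quasi-likelihood test (adjusted p = 0.152) did not. Over 18 alternatives its adjusted p ranged from 0.0251 to 0.689. With the run AAEL018664 to AAEL018689 left out, the exact test gave an adjusted p of 0.0719 at a log2 fold change of -0.40. Why that p was lower was not tested.

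AAEL013339 was next, with 162, 182, 136 and 179 CPM without heme and 148, 121, 136 and 114 CPM with it. The groups overlapped because of 0 µM heme replicate 3, which lay below 10 µM heme replicate 1 and close to 10 µM heme replicate 3. Its log2 fold change was -0.34 ± 0.13 (SE; exact test, adjusted p = 0.241), with an interval of -0.63 to -0.14. No alternative called it, with adjusted p from 0.079 to 0.576.

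AAEL013349 and AAEL013350 took the most counts of the 7, with no correction for gene length, and together made up 61.1% to 70.2% of the small heat shock counts in a library. AAEL013349 had 1688, 1951, 1713 and 1901 CPM without heme and 1718, 1988, 1623 and 1598 CPM with it. The highest value of all 8 libraries was in 10 µM heme replicate 2, and its log2 fold change was -0.07 ± 0.09 (SE; adjusted p = 0.979). AAEL013350 had 1856, 2049, 1799 and 2089 CPM without heme and 1867, 2065, 1705 and 1415 CPM with it, a log2 fold change of -0.14 ± 0.13 (SE; adjusted p = 0.914). Its lowest value, in 10 µM heme replicate 4, stood below the other 7 libraries, which overlapped.

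AAEL013345 had 562, 599, 470 and 643 CPM without heme and 549, 483, 590 and 459 CPM with it. AAEL013346 had 703, 584, 483 and 702 CPM without heme and 653, 520, 590 and 499 CPM with it. Each gene had 0 µM heme replicate 3 at or near the bottom of its 8 values, and the groups overlapped. Both had a log2 fold change of -0.13, with SE of 0.13 and 0.16 (exact test, adjusted p = 0.921 and 0.932).

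AAEL013338 was the only 1 of the 7 found, as lethal(2)essential for life, in the part of the study's annotation that was read. This gene was scarce beside the others in counts, with 302 to 615 counts per library. It had 6.67, 8.05, 7.45 and 10.8 CPM without heme and 6.82, 6.02, 8.14 and 6.29 CPM with it. The high value of 0 µM heme replicate 4 carried much of its difference of -0.28 ± 0.18 (log2, SE; exact test, adjusted p = 0.655), which was -0.12 without that library.

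The HSP90 gene AAEL011708 had 257, 382, 321 and 347 CPM without heme and 308, 360, 339 and 322 CPM with it. All 4 heme libraries lay within the range of the libraries without heme. Its log2 fold change was 0.02 ± 0.13 (SE; exact test, adjusted p = 1.0), with a limma-voom interval of -0.24 to 0.20. The sign was not settled, since it was -0.07 with scaling by library totals, -0.08 without 0 µM heme replicate 1, which held the lowest value, and -0.03 without 10 µM heme replicate 2.

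**Figure D2:**
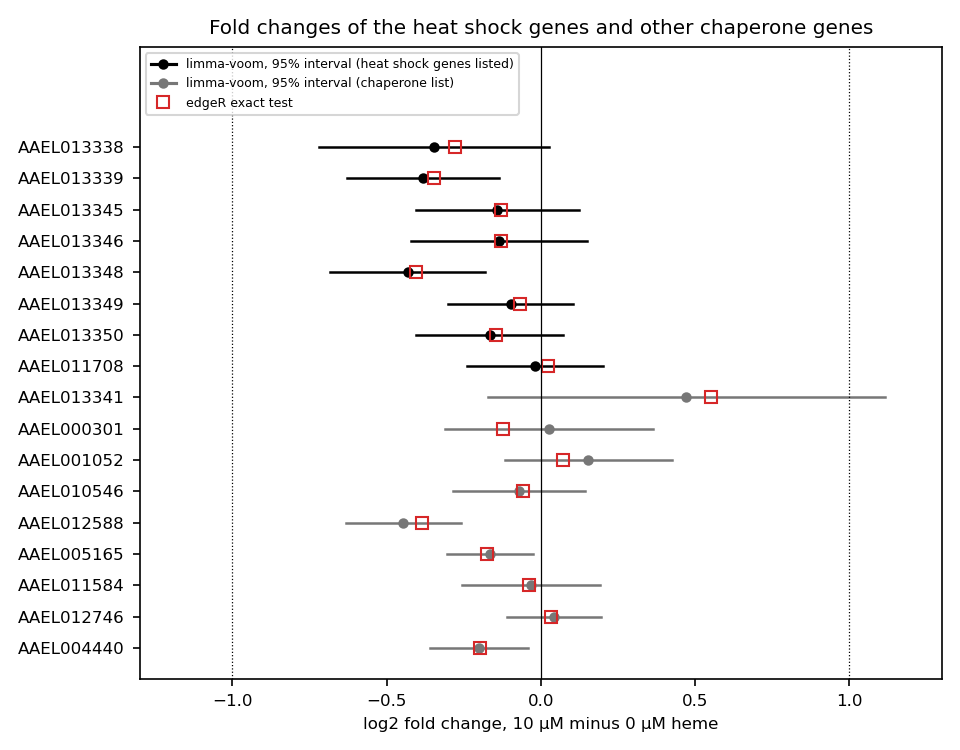
Log2 fold change, 10 µM minus 0 µM heme (x axis), of the 8 heat shock genes (black) and 9 other chaperone genes (grey); circles and lines are limma-voom estimates with 95% intervals, red squares the edgeR exact test, and dotted lines mark a doubling and a halving. All 8 black intervals lie between the dotted lines, and the interval of AAEL013341 reaches 1.11.

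Summed over the 7 small heat shock genes, the level was 5805, 6159, 5352 and 6494 CPM without heme and 5645, 5772, 5330 and 4634 CPM with it. The means were 5952 ± 489 CPM (SD, n = 4) and 5345 ± 509 CPM (SD, n = 4), and the groups overlapped. As a share of all counts, without TMM scaling, the 7 genes held 0.615% ± 0.0616 (SD, n = 4) and 0.518% ± 0.0464 (SD, n = 4). The share of the run AAEL018664 to AAEL018689, given above, is part of the same totals. AAEL011708 held 0.0339% ± 0.00658 (SD, n = 4) and 0.0324% ± 0.00447 (SD, n = 4).

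Scaling can be set aside by taking ratios of counts within a library. Of the 21 ratios between 2 small heat shock genes, 3 parted the groups. Each of the 3 involved AAEL013339 or AAEL013348, as did 11 of the 21 ratios. How often ratios between other genes part the groups was not computed. AAEL013348 had 1.31 to 1.58 counts per count of AAEL013345 without heme and 1.15 to 1.28 with it. AAEL013339 had 0.278 to 0.303 counts per count of AAEL013345 without heme and 0.230 to 0.269 with it. The third was AAEL013346 over AAEL013348, at 0.650 to 0.849 without heme and 0.869 to 0.927 with it. None of the 10 ratios without AAEL013339 and AAEL013348 did so. These ratios were taken after the values were seen, and no test was run on them.

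**Figure D3:**
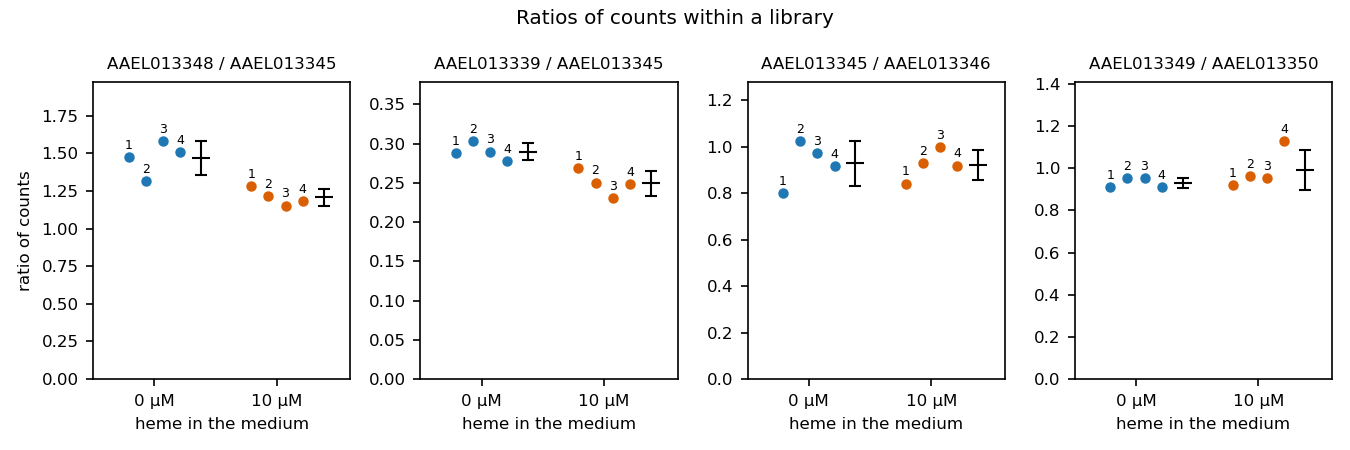
Ratio of the counts of 2 small heat shock genes in each library (y axis, from 0), for 4 of the 21 pairs, at 0 µM (blue) and 10 µM heme (orange); points are libraries labelled by replicate, and the bar is the mean ± SD of 4. The first 2 ratios are lower in every heme library, and the last ranges from 0.910 to 0.963 except in 10 µM heme replicate 4, where it is 1.13.

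The counts of AAEL013349 and AAEL013350 stood in a nearly fixed ratio in 7 libraries, 0.910 to 0.963, and at 1.13 in 10 µM heme replicate 4. Near-identical copies can share or lose reads under a mapping quality filter, and how this touched the small heat shock genes was not tested. No identifier in the table had counts within 2% of any of the 8 genes in all 8 libraries. The closest were AAEL013349 and AAEL013350, which differed by up to 11.5%.

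How the genes vary among themselves was described by Pearson's r of log2 CPM over the 8 libraries, which share treatment and scaling. Among the 21 pairs of small heat shock genes r ranged from 0.102 to 0.913, with a median of 0.651. AAEL013339, AAEL013345, AAEL013346 and AAEL013348 had r of 0.720 to 0.913 with each other, and 0.795 to 0.915 for deviations from the group means. AAEL013349 and AAEL013350 had 0.866 with each other, and the pair differed in r with those 4, at 0.102 to 0.417 for AAEL013349 and 0.431 to 0.651 for AAEL013350. AAEL013338 had r of 0.465 to 0.778 with the 4. In 10 µM heme replicate 2 the 4 genes and AAEL013338 lay below their means, and AAEL013349 and AAEL013350 above. The paper reports that this library stood apart from the other replicates of its group. This grouping was made after the values were seen. AAEL011708 had r of -0.360 to 0.605 with the small heat shock genes, highest with AAEL013349.

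**Figure D4:**
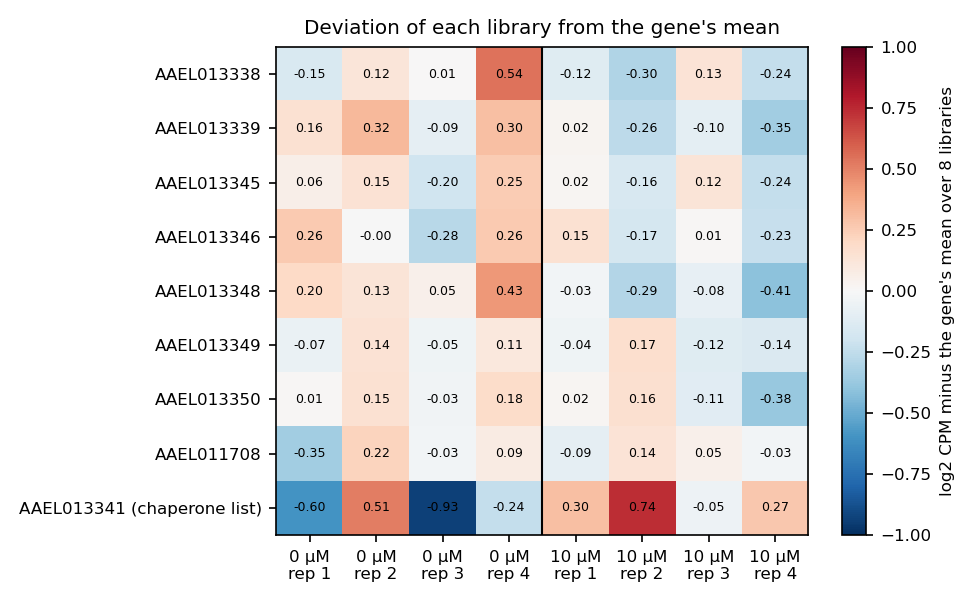
Log2 CPM of each gene in each library minus the gene's mean over the 8 libraries (colour and printed value, red above and blue below), with 0 µM libraries left of the line and 10 µM libraries right of it. AAEL013339, AAEL013345, AAEL013346 and AAEL013348 are below their means in 10 µM heme replicate 2, where AAEL013349 and AAEL013350 lie above theirs by 0.17 and 0.16.

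The spread between replicates was moderate. The SD of CPM within a group was 6.75% to 21.9% of the group mean. The biological coefficient of variation estimated by edgeR was 0.149 to 0.196, with a median of 0.183 against 0.185 over all genes tested. That estimate also draws on other genes, so it is not the observed spread of these genes alone.

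A search by product name in the part of the study's annotation that was read gave 9 other chaperone genes. That annotation holds genes expressed in a cultured cell line, so chaperone genes of the midgut can be missing from the list. Of the 9, 0 were called by the exact test (against 4.63% of all genes), and 1 was lower at an unadjusted p under 0.05 (against 6.69%). A log2 fold change below 0 was found in 6 of the 9 (against 46.6%), with a median of -0.06 against 0.02 over all genes. In 3 of the 9 all heme libraries lay below all libraries without heme (against 5.32%). DESeq2 called 2 of the 9 (against 6.45%) and the quasi-likelihood test 0 (against 2.85%), with 2 lower at an unadjusted p under 0.05 (against 7.7%). AAEL012588, a putative Hsp70-interacting protein, missed the threshold narrowly. It had 30.8, 34.6, 31.4 and 35.3 CPM without heme and 23.9, 25.9, 23.5 and 27.7 CPM with it, with no overlap. Its log2 fold change was -0.39 ± 0.07 (SE; exact test, adjusted p = 0.0501), and 7 of 18 alternatives called it, among them DESeq2 (adjusted p = 0.00435) and limma-voom (adjusted p = 0.0141). Over the alternatives its adjusted p ranged from 0.00435 to 0.260.

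AAEL005165, a DnaJ protein of the Hsp40 type that stimulates the ATPase of HSP70, had 753, 729, 764 and 753 CPM without heme and 651, 689, 662 and 654 CPM with it. The groups did not overlap, but the log2 fold change of -0.17 ± 0.02 (SE) was not called by the exact test (adjusted p = 0.804), whereas DESeq2 did call it (adjusted p = 0.0481). AAEL004440, tubulin-specific chaperone e, which acts in tubulin folding, was likewise without overlap, at 23.3 to 25.2 CPM against 20.3 to 22.4 CPM (log2 fold change -0.20 ± 0.04, SE; adjusted p = 0.532). The chaperonins AAEL011584 (ch60) and AAEL012746, which fold proteins inside a closed chamber, lay at -0.04 ± 0.12 and 0.03 ± 0.04 (log2, SE). AAEL010546, a putative heat shock factor binding protein, lay at -0.06 ± 0.08, and AAEL000301 and AAEL001052, named only as heat shock proteins, at -0.12 ± 0.23 and 0.07 ± 0.17 (log2, SE). None of these 5 had an adjusted p below 0.953.

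AAEL013341, a further gene named lethal(2)essential for life that was not among the 8 listed small heat shock genes, had the opposite sign. It had 7.31, 15.8, 5.79 and 9.40 CPM without heme and 13.6, 18.5, 10.7 and 13.3 CPM with it. Replicate 2 was the highest of both groups, and the groups overlapped through 0 µM heme replicate 2. Its log2 fold change was 0.55 ± 0.35 (SE; exact test, adjusted p = 0.466), and 0.90 with adjusted p = 0.0135 without that library. The difference in fold change between AAEL013341 and the listed genes was not tested.

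For genes outside the list, log2 CPM over the 8 libraries was correlated with the mean profile of the 7 small heat shock genes. The 3 with the highest r were AAEL005106 (r = 0.964), AAEL013344 (r = 0.952) and AAEL002781 (r = 0.947). Of 11087 genes compared, 16 had r over 0.9. None of the 3 was called, with log2 fold changes of -0.19, -0.23 and -0.15 in that order. AAEL013344 stands in the same 12 rows of the table as the small heat shock genes. No name was used for it, and whether it belongs to their family or shares reads with them was not tested.

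**Figure D5:**
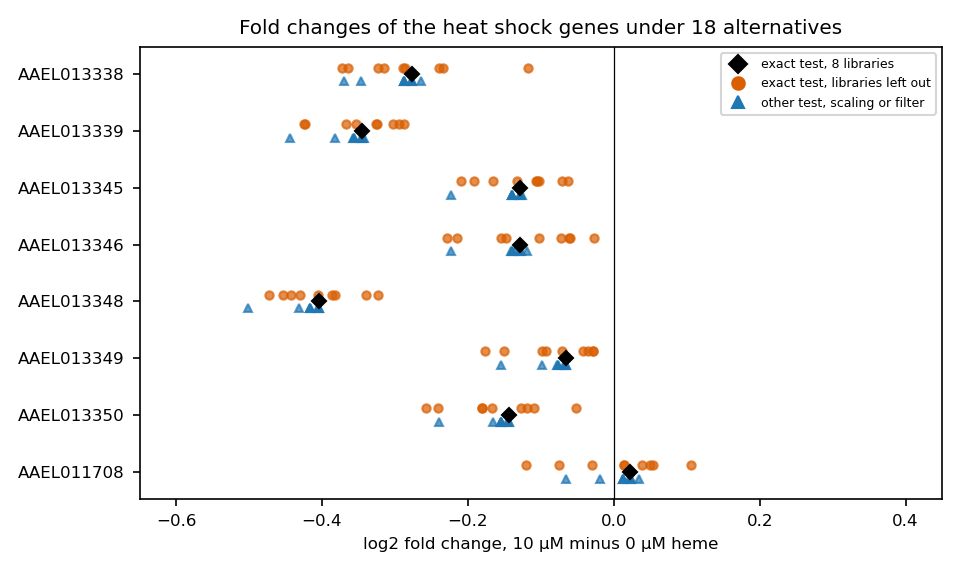
Log2 fold change, 10 µM minus 0 µM heme (x axis), of each heat shock gene in the exact test on 8 libraries (black diamonds), with libraries left out (orange circles) and under other tests, scalings or filters (blue triangles). The 7 small heat shock genes stay below 0 in all 18 alternatives, AAEL013348 between -0.50 and -0.32, and AAEL011708 lies on both sides of 0.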

How the data were processed

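The authors mapped unpaired reads to AaegL5 with HISAT2 2.1.0, dropped poorly mapped reads with SAMtools and tallied the rest over transcripts with bedtools 2.19.1. Handling of strand and of overlapping transcripts was not given in the sources used here. What was deposited is a table of unnormalized counts, with 1 column per library.

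The test was the one the paper names, the two-sided exact test (edgeR 4.0.16, R 4.3.3), with Benjamini-Hochberg adjustment over all 11095 genes kept. The filter (filterByExpr) and TMM scaling were chosen here, since the paper states neither. The test called 514 genes here, more than the paper reports for midguts at the same threshold. The reason for this difference was not tested. Each SE is for the 10 µM mean minus the 0 µM mean of log2 CPM (prior count 2). Intervals are from limma 3.58.1 voom. Alternatives were the quasi-likelihood test without and with a replicate block, DESeq2 1.42.0, limma-voom, 2 other scalings, 2 other filters, leaving out each library or a pair, and leaving out the run AAEL018664 to AAEL018689. The pair was 0 µM heme replicate 1 and 10 µM heme replicate 2, which the paper reports as standing apart from their groups. The fits were tested on simulated data that held only doublings and halvings. That check does not bear on changes as small as those of the heat shock genes. The genes and lists were chosen with earlier results of these data known. Named genes were all listed genes, the chaperone list, rpS7, 3 marker genes and the 3 genes most alike in profile; AAEL013344, AAEL013347, AAEL013351 and AAEL013352 were added after their values were seen, as rows among the small heat shock genes. RefSeq matched 0 identifiers by name, so positions were matched by start and end.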

Additional observations from a re-analysis of the deposited data

Results flagged for a closer look

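The chaperonin AAEL012746 had 209.5 CPM in 0 µM heme replicate 4, against 223 to 225 CPM in the other 3 libraries of that group, a gap of 0.89 of the group's range, above Dixon's 95% critical value. Of 34 groups of 4 values examined (the 8 heat shock genes and 9 chaperone genes at each dose), this was the only 1 past that value, and chance gives about 1.7.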

How the results depend on the processing

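The 7 small heat shock genes had log2 fold changes below 0 in all 18 alternatives, with medians from -0.26 to -0.07. The count of the 8 heat shock genes called was 0 in 17 alternatives and 1 with DESeq2, where AAEL013348 passed. AAEL011708 changed sign with limma-voom (-0.0184), library totals (-0.0653) and without 0 µM heme replicate 1 and 10 µM heme replicate 2 together (-0.12), and ranged from -0.0753 to 0.106 with 1 library left out. Among the chaperone genes, the exact test called 0, the quasi-likelihood test with a replicate block 2, DESeq2 2 and limma-voom 1. Over all 11095 genes tested, the calls in that order were 514, 725, 716 and 590. DESeq2-type size factors and the CPM filter each called 1 chaperone gene, beside 512 of 11095 and 495 of 8374 genes in all. Leaving out 1 library gave 0 to 1 chaperone genes (1 without 0 µM heme replicate 1, 0 µM heme replicate 2 or 10 µM heme replicate 4). Signs changed in AAEL000301 with limma-voom (0.0267), the pair left out (0.13) and single libraries (-0.24 to 0.10), in AAEL001052 with library totals (-0.0269) and single libraries (-0.0444 to 0.174), in AAEL011584 with single libraries (-0.140 to 0.0535), and in AAEL012746 with library totals (-0.0499) and single libraries (-0.000287 to 0.0551). Over all genes tested the exact test called 514, the quasi-likelihood test 316 and, with 1 library left out, 333 to 549, the lowest without 10 µM heme replicate 3. Of the calls, 47.9% were higher with heme under TMM and 32.1% under library totals. The causes were not tested.

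The replicate numbers were treated as names and not as pairs. Deviations from the group means of same-numbered libraries correlated across genes at 0.515, 0.0702, 0.0616 and 0.157, and not every library correlated best with its own number. With the replicate block, the quasi-likelihood test called 0 of the 8 heat shock genes and 725 genes in all, and among the chaperone genes it called AAEL012588 (adjusted p = 0.0185) and AAEL013341 (adjusted p = 0.0359).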

Other observations

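The 12 rows of the count table from AAEL013341 to AAEL013348 hold 4 further identifiers that neither the small heat shock list nor the chaperone list includes, and for which no name was used here. They were looked at after their values were seen. With AAEL013341, the rows hold 5 genes beside the 7 small heat shock genes, of which 2 had a log2 fold change below 0 (against 46.6% of all genes tested) and 3 above, and 0 of the 12 were called by the exact test (against 4.63%). AAEL013351 had 389, 347, 270 and 381 CPM without heme and 309, 256, 294 and 225 CPM with it (log2 fold change -0.35 ± 0.16, SE; adjusted p = 0.407). AAEL013344 lay at -0.23 ± 0.12 (log2, SE; adjusted p = 0.749) and AAEL013352 at 0.10 ± 0.22 (log2, SE; adjusted p = 0.970).

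AAEL013347, in the row after AAEL013341, had 3.40, 10.6, 4.67 and 6.18 CPM without heme and 8.21, 11.8, 6.51 and 9.24 CPM with it. As in AAEL013341, replicate 2 was the highest of both groups. Its log2 fold change was 0.53 ± 0.39 (SE; exact test, adjusted p = 0.586).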
